A study of Homo sapiens with 6 samples.

Results

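The mRNAs described here come from 8 genes of mitosis and cytokinesis, MKI67, ASPM, TPX2, ANLN, ECT2, PRC1, NUSAP1 and HMMR. They are the rows of the deposited table that carry these symbols, 8 of 23013 genes, and all 8 passed the filter on low values (normalised counts that averaged 10 or more). The genes were picked with earlier results of the same ORC1 IP against input comparison known, MKI67 in particular, so their differences between IP and input are given as a description and no p-value is read from them.

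The study asked which RNAs come down with ORC1, the subunit of the origin recognition complex that takes part in marking the sites where DNA replication starts. It used native RNA immunoprecipitation and sequencing (RIP-seq), in which a protein is pulled out of a lysate without crosslinking and the RNA that comes with it is sequenced. All libraries were from nuclei of untreated, asynchronous HCT116 cells, an established human colorectal cancer cell line. The 3 input libraries were nuclear RNA taken without antibody, and the 3 ORC1 IP libraries were RNA recovered with an anti-ORC1 antibody, numbered 1 to 3 by RIP replicate. According to the study, its control IgG gave no RNA that could be detected. No library from that antibody was analysed here, so no gene has a pull-down background of its own. The labels do not say whether replicates came from separate cultures, and p-values measure the spread between these libraries, which may be technical.

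Cells make most of these mRNAs late in the cell cycle and use the proteins to divide. Ki-67, the product of MKI67, coats mitotic chromosomes and keeps them apart, and is the common marker of proliferating cells. TPX2, NUSAP1, HMMR and ASPM act on spindle microtubules, PRC1 bundles the antiparallel microtubules of the spindle midzone between the separating chromosomes, and ECT2 and anillin (ANLN) set up the contractile ring that cuts the cell. In a bulk sample of asynchronous cells, fewer cells in G2 or mitosis and less RNA per cell cannot be told apart.

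The sequences that tie the data to the study are those of MKI67, the only one of the 8 genes with primers among the oligonucleotides of the study. The gene lies on chromosome 10 (128096659 to 128126423, minus strand, GRCh38). One primer pair was designed to amplify MKI67 cDNA, and the others were designed on genomic DNA, at sites called MKI67_Ori and MKI67_Neg. They are shown because they mark which part of the mRNA and of the gene the study probed:
MKI67 cDNA forward: aatttgcttggaaaacagtttca
MKI67 cDNA reverse: tgcactgaagaacacatttcct
MKI67_Ori forward: tcaagtcgcacccaaagtcc
MKI67_Ori reverse: ggtgcagcgaacgcga
MKI67_Neg forward: gtggtgatcaaaagggtgttcac
MKI67_Neg reverse: gcagagggaggttgaccttg

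Matched to GENCODE v44 on GRCh38, the cDNA pair spans 96 nt of the coding part of the mRNA, with the forward primer in exon 12 and the reverse primer in exon 13 (chromosome 10, 128109401 to 128110450). Exon 13 is 6845 nt long and makes up 53.8% of the 12716 nt transcript. The MKI67_Ori product (chromosome 10, 128126144 to 128126267) lies inside the untranslated exon 1, 156 to 279 bases downstream of the annotated gene start. The MKI67_Neg product (chromosome 10, 128122486 to 128122659) lies in intron 4, 3764 to 3937 bases downstream of that start. Each primer had 1 exact match on chromosome 10.

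The working name of the group calls these mRNAs long, which the annotation bears out for only some of them. The canonical transcripts of MKI67 (12716 nt) and ASPM (10863 nt) were longer than those of 98.6% and 97.5% of the tested genes. ANLN, at 4731 nt, was just above the upper quartile of 4648 nt. The other 5 lay between the 41.2 and 69.3 percentiles, from NUSAP1 with 2263 nt through HMMR (3016 nt), PRC1 (3072 nt) and TPX2 (3473 nt) to ECT2 with 4136 nt, against a median of 2751 nt for 16062 tested genes with a match. They are therefore called the 8 mitotic mRNAs below. A low GC content was shared by some of them too: HMMR (36.2%), ECT2 (36.3%) and ASPM (37.1%) were among the lowest 5% of tested genes, ANLN (39.8%) and NUSAP1 (42.1%) were below the median of 48.6%, and TPX2 (46.6%), PRC1 (46.8%) and MKI67 (48.3%) were near it. All 8 had more exons than the median gene (7), from 11 in NUSAP1 to 28 in ASPM.

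The study examined tandem GAA repeats in the RNAs it recovered, with a motif search over the largest transcripts. Here exact letters were searched, which is a different criterion. An mRNA without a match may still hold the motif of the study. The 9 letters GAAGAAGAA were searched on the RNA strand of the canonical transcripts, and were present in 4 of the 8 mitotic mRNAs and in 13% of the tested genes. The complement, TTCTTCTTC, was in none of the 8. The longest uninterrupted run of GAA units in the coding part of each of the 4 mRNAs had 3 units, shown here in capitals with 12 bases on each side (GENCODE v44, written with T):
MKI67, transcript bases 4963 to 4995: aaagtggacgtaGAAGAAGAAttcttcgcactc
ASPM, transcript bases 2128 to 2160: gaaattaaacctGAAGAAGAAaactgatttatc
TPX2, transcript bases 2334 to 2366: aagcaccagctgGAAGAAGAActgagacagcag
PRC1, transcript bases 866 to 898: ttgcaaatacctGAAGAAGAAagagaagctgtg

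Longer transcripts hold such a run more often. Among tested genes within 10% of the same length, the letters were in 33.1% (MKI67), 30.8% (ASPM), 12.9% (TPX2) and 11.0% (PRC1). ANLN, ECT2, NUSAP1 and HMMR had runs of at most 2 units in their coding parts and no match to the 9 letters anywhere in the transcript.

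Before the values of single mRNAs, the libraries were compared. The libraries held 13703033 to 36008733 reads on genes, and the 8 mRNAs between 439 (HMMR, input 2) and 262559 reads (MKI67, ORC1 IP 1), so that counting error was at most 4.77%. ORC1 IP 2 stood apart from the other IPs. Genes of the mitochondrial genome held 6% of its normalised counts, against 0.617% and 0.257% in ORC1 IPs 1 and 3 and 1.49% to 3.28% in inputs. The nuclear RNAs MALAT1, NEAT1 and KCNQ1OT1 summed to 121118 normalised counts in ORC1 IP 2, against 28983 and 12245 in ORC1 IPs 1 and 3 and 16237 to 39885 in inputs. Of 8 epithelial markers of HCT116, 8 had a row and 7 passed the filter, with sums of 49891 to 139977 in inputs, 17997 in ORC1 IP 2 and 146189 and 71585 in ORC1 IPs 1 and 3. Of 8 markers of blood, stromal, endothelial and muscle cells, only COL1A1 and DES had a row, and they summed to 177 to 323 in inputs and 453 to 821 in ORC1 IPs. The part of these differences in the results below was not tested, and results are given with and without ORC1 IP 2.

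The share of each library taken by the 8 mitotic mRNAs was higher in ORC1 IPs than in inputs. They held 0.292%, 0.201% and 0.144% of normalised counts in inputs 1 to 3, against 1.49%, 0.575% and 0.848% in ORC1 IPs 1 to 3. The means were 0.213% ± 0.0747 and 0.970% ± 0.468 (SD, n = 3), and the groups did not overlap. MKI67 made up 27.1% to 37.8% of this share in inputs and 62.9% to 70.3% in ORC1 IPs. The lack of overlap rested on MKI67. It held 0.405% of the 0.575% in ORC1 IP 2 and 0.108% of the 0.292% in input 1. The rest of the 8 together therefore held less in ORC1 IP 2 than in input 1. Without ORC1 IP 1 the difference of the means went from 0.757 to 0.499 percentage points, and without ORC1 IP 2 it was 0.955.

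**Figure D1:**
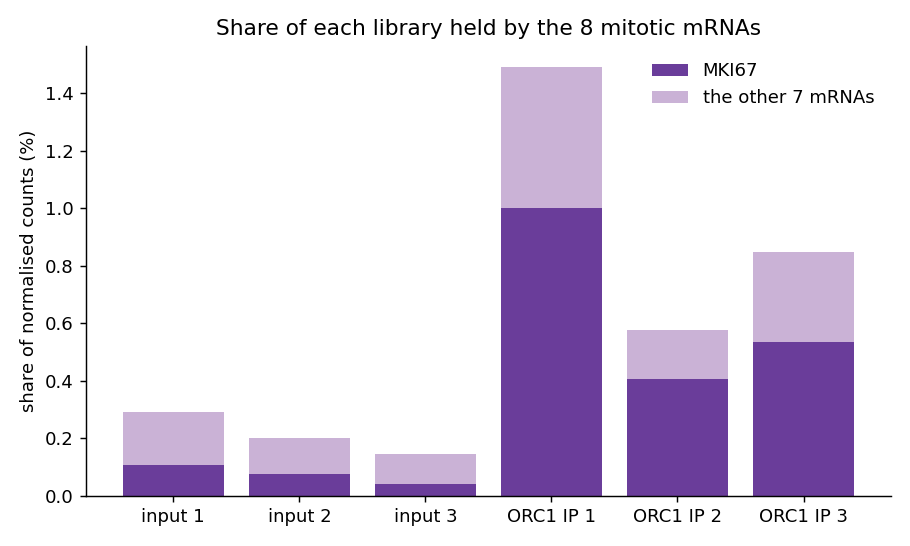
Stacked bars give the percentage of normalised counts in each of the 6 libraries that came from MKI67 (dark) and from the other 7 mitotic mRNAs (light). MKI67 alone held 0.405% to 1.00% in the 3 ORC1 IPs and 0.0391% to 0.108% in the 3 inputs.

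MKI67 (ENSG00000148773) had the largest difference of the 8. Its normalised counts (reads divided by a size factor per library) were 19684, 16417 and 7527 in inputs 1 to 3, against 302312, 59029 and 143120 in ORC1 IPs 1 to 3. All ORC1 IPs were above all inputs, and the lowest IP was 3.00 times the highest input. Among the 23013 genes, MKI67 ranked 48, 141 and 350 by normalised count in inputs 1 to 3, while its ranks were 4, 7 and 11 in ORC1 IPs 1 to 3. Its log2 difference, on the scale of log2(normalised count + 1) that is used throughout, was 3.35 ± 1.07 (SE), a 10.2-fold difference. The RIP replicates gave 15.4-fold, 3.60-fold and 19.0-fold.

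ASPM (ENSG00000066279, chromosome 1, 197084121 to 197146694, minus strand) encodes a protein of the spindle poles that binds microtubule minus ends. It had 2063, 1650 and 1024 normalised counts in inputs 1 to 3, against 3991, 3377 and 10661 in ORC1 IPs 1 to 3. The groups did not overlap, and ORC1 IP 3 was the highest library. The log2 difference was 1.79 ± 0.50 (SE), with 0.95, 1.03 and 3.38 in replicates 1, 2 and 3. ASPM and MKI67 were the only mRNAs of the 8 with all IPs above all inputs, a pattern that 12.7% of the 16513 tested genes showed.

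HMMR (ENSG00000072571, chromosome 5, 163460203 to 163491941, plus strand), also called RHAMM, encodes a hyaluronan receptor that works inside dividing cells on spindle assembly. It had the second largest difference of the 8, and its transcript is of ordinary length. Its normalised counts were 2404, 692 and 706 in inputs 1 to 3, against 12977, 2132 and 6370 in ORC1 IPs 1 to 3. ORC1 IP 2 was below input 1 and 3.08 times the lowest input. The log2 difference was 2.41 ± 0.65 (SE), with 2.43, 1.62 and 3.17 in replicates 1, 2 and 3. NUSAP1 (ENSG00000137804, chromosome 15, 41320794 to 41381050, plus strand), a microtubule-binding protein of the spindle near chromosomes, varied over libraries almost as HMMR did (Pearson r 0.982 over the 6 libraries). Its normalised counts were 3948, 2403 and 2227 in inputs 1 to 3, against 13301, 3430 and 6944 in ORC1 IPs 1 to 3, with a log2 difference of 1.30 ± 0.54 (SE). Here too ORC1 IP 2 was below input 1 and above the other inputs.

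TPX2, PRC1 and ANLN formed a set that was higher in ORC1 IPs 1 and 3 and not in ORC1 IP 2. TPX2 (ENSG00000088325, chromosome 20, 31739271 to 31801805, plus strand) activates Aurora kinase A and promotes microtubule growth around chromosomes. It had 9098, 8622 and 7448 normalised counts in inputs 1 to 3, against 49141, 6079 and 24437 in ORC1 IPs 1 to 3. The inputs were within 1.22-fold of each other, ORC1 IP 2 was below all of them, and the IPs spanned 8.08-fold. PRC1 (ENSG00000198901, chromosome 15, 90966040 to 90995629, minus strand) had 4563, 4381 and 3643 normalised counts in inputs 1 to 3, against 26326, 2419 and 11629 in ORC1 IPs 1 to 3. Its profile was nearly that of TPX2 (Pearson r 0.995 over the 6 libraries), again with ORC1 IP 2 as the lowest library. ANLN (ENSG00000011426, chromosome 7, 36389821 to 36453791, plus strand) had 7362, 7544 and 3474 normalised counts in inputs 1 to 3, against 37071, 4648 and 17808 in ORC1 IPs 1 to 3. ORC1 IP 2 lay between input 3 and the other inputs.

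The log2 differences of TPX2, PRC1 and ANLN were 1.21 ± 0.78, 1.12 ± 0.74 and 1.33 ± 0.75 (SE), and those of replicate 2 were -0.50, -0.86 and -0.70. Of all tested genes, 38.2% had ORC1 IP 2 below all inputs, as TPX2 and PRC1 did. Their differences depended on ORC1 IP 2: without it they were 2.05, 2.07 and 2.15, and without ORC1 IP 1 they were 0.54, 0.34 and 0.65. In GENCODE v44, exons of PRC1 overlap those of the antisense RNA PRC1-AS1 over 1892 nt, and exons of ANLN overlap 78 nt of MATCAP2 on the opposite strand. NUSAP1 shares 352 nt with OIP5 (opposite strand) and 195 nt with OIP5-AS1 (same strand), and HMMR shares 113 nt with HMMR-AS1. PRC1 and NUSAP1 are also covered on their own strand by a further annotated protein-coding gene each, over 3181 and 2938 exonic nt. Neither of those genes, nor HMMR-AS1, has a row among the 23013 deposited genes. The study prepared stranded libraries, but the handling of reads in overlaps is not given in the sources read. The counts of these mRNAs are therefore uncertain in those parts.

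ECT2 (ENSG00000114346, chromosome 3, 172750682 to 172821474, plus strand), the exchange factor that switches on RhoA at the cell equator, had the smallest difference. It had 4089, 1778 and 1690 normalised counts in inputs 1 to 3, against 3835, 2823 and 6510 in ORC1 IPs 1 to 3. Input 1 was above ORC1 IPs 1 and 2, so the groups overlapped. The log2 difference was 0.84 ± 0.49 (SE), and the replicates gave -0.09, 0.67 and 1.95.

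**Figure D2:**
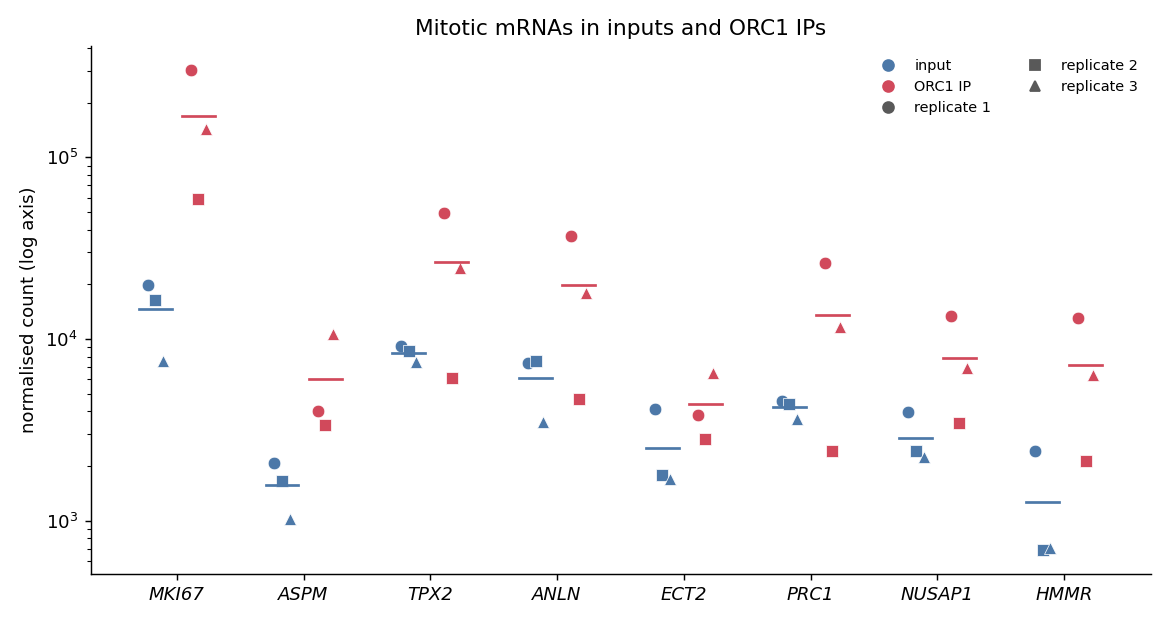
Points are normalised counts (log axis) of the 8 mitotic mRNAs in each input (blue) and ORC1 IP (red), with the replicate number by shape and the mean of each group of 3 as a line. Only MKI67 and ASPM have all red points above all blue ones, and ORC1 IP 2 (red square) is the lowest IP for all 8.

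Across the 8, libraries of a group kept a similar order. ORC1 IP 2 was the lowest IP for all 8, ORC1 IP 1 was the highest for 6 and ORC1 IP 3 for ASPM and ECT2. Input 1 was the highest input for 7 (ANLN was the exception) and input 3 the lowest for 7 (HMMR was the exception). The number of mRNAs with a higher IP than input of the same number was 7 of 8 in replicate 1, 5 of 8 in replicate 2 and 8 of 8 in replicate 3, against 49.8%, 50.3% and 52.1% of all tested genes. The median log2 differences of the 8 were 2.38, 0.59 and 2.15 in replicates 1, 2 and 3, where those of all tested genes were -0.01, 0.01 and 0.05. MKI67, ASPM, NUSAP1 and HMMR were higher in all 3 replicates. The share of all tested genes with that pattern, or with the library orders above, is not given here, so neither is read as a trait of the 8. Counts and differences by replicate rest on the numbers in the labels, which the libraries themselves leave in doubt. Set against input 1 in place of input 2, ORC1 IP 2 was lower for NUSAP1, HMMR and ECT2 too, and higher only for MKI67 and ASPM. ORC1 IP 1 was higher than input 2 for all 8, ECT2 included. Among the 28 pairs of the 8 mRNAs, Pearson r over the 6 libraries went from 0.554 (ASPM and PRC1) to 0.995 (TPX2 and PRC1), with a median of 0.837. All pairs share the same libraries, so these values describe the profiles and carry no p.

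**Figure D3:**
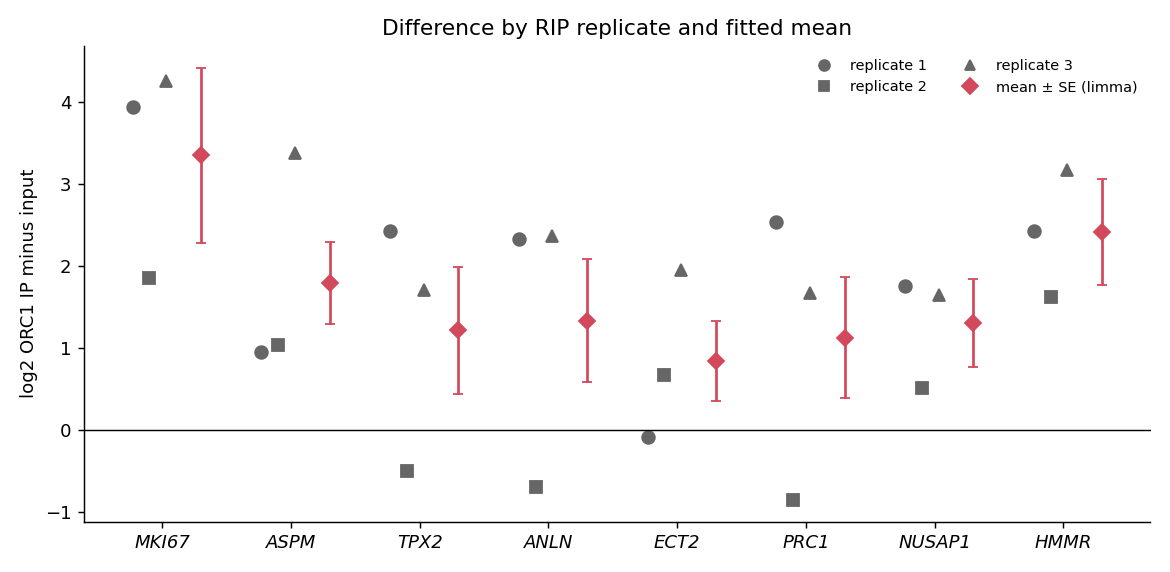
Grey symbols are the log2 difference of ORC1 IP minus input for each RIP replicate, and the red diamond is the fitted mean with its SE (limma, 3 against 3 libraries). The fitted means go from 0.84 (ECT2) to 3.35 (MKI67), and in replicate 2 TPX2, PRC1 and ANLN are below 0.

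The differences of all 8 mRNAs were positive, as were those of 50.7% of the tested genes, and 0 of 8 passed the limma test after Benjamini-Hochberg adjustment over all tested genes (0.05). The same rule called 3.69% of the tested genes, 2.28% higher and 1.42% lower, so that 61.6% of the calls were higher (47.5% with scaling by total count). Of the 8, 4 had an unadjusted p under 0.05 in limma, as did 21.6% of the tested genes in either direction and 12.2% in the direction of the IP. The edgeR test on recovered reads also called 0 of 8 higher, where it called 2.57% of the genes. DESeq2 on recovered reads called 6 (all but ECT2 and PRC1), where it called 7.67% of the genes higher. With the replicate number as a block limma called 1 (HMMR), where it called 433 of the 16513 tested genes higher. Without ORC1 IP 2 limma called 7 (all but ECT2) and 11.9% of the tested genes higher. Without input 1 it called 1 (HMMR) and 403 of the 16513 tested genes higher. Since the same contrast entered the choice of the genes, nothing is read from these counts. The median difference of the 8 was 1.32, beside 0.01 for all tested genes, and their percentiles among the tested genes went from 82.4 (ECT2) to 99.9 (MKI67).

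Levels were then compared between mRNAs per kilobase of canonical transcript. In inputs TPX2 was the highest, with 2416 ± 245 normalised counts per kb (SD, n = 3), and was the highest of the 8 in each of the 3 inputs. PRC1 (1366 ± 159), ANLN (1295 ± 486), NUSAP1 (1264 ± 419) and MKI67 (1144 ± 495) followed, with ranges that overlapped one another. ECT2 (609 ± 329) overlapped both MKI67 and HMMR (420 ± 326), and ASPM was the lowest with 145 ± 48.2, below the range of HMMR. In ORC1 IPs the order was different. MKI67 was the highest of the 8 in each of the 3 IPs, with 23774, 4642 and 11255 normalised counts per kb in replicates 1 to 3. TPX2 followed with 14149, 1750 and 7036, so that both ranges overlapped although MKI67 was above TPX2 within each library. PRC1 (4381 ± 3925), ANLN (4194 ± 3447), NUSAP1 (3487 ± 2211), HMMR (2374 ± 1812), ECT2 (1061 ± 461) and ASPM (553 ± 372) came next, and each range overlapped that of its neighbour. Per kb of all annotated exons, TPX2 was again the highest in each input and MKI67 in each IP, while PRC1 and MKI67 changed places in the order of the input means, and ANLN and PRC1 in that of the IP means.

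Genes with the profile most like that of MKI67 over the 6 libraries were then sought among 11406 genes whose normalised counts averaged 100 or more. The 5 closest were KIF15 (Pearson r 0.999), CDK5RAP2 (0.998), CCAR1 (0.997), NOL8 (0.996) and FBXW7 (0.996). KIF15 is a kinesin of the spindle and CDK5RAP2 a centrosomal protein. Of the other mitotic mRNAs of the group, HMMR (0.940, rank 388 of 11405) and NUSAP1 (0.931, rank 489) were closest to MKI67 and ECT2 (0.723, rank 2234) the farthest. With 6 libraries in 2 groups such values are a description.

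The rest of the division machinery was described from lists of genes. Of 25 other genes of the midzone and of cytokinesis, 2 were called higher and 0 lower, where limma called 2.28% and 1.42% of all tested genes, and 10 had an unadjusted p under 0.05 (all tested genes 21.6%). KIF20B, a kinesin of late cytokinesis, rose by 2.48 ± 0.45 on the log2 scale (SE; limma adjusted p = 0.0169). Its normalised counts averaged 1066 ± 387 (SD, n = 3) without and 5972 ± 2340 with the antibody. KIF14, a kinesin that binds PRC1 and citron kinase at the midbody, rose by 2.18 ± 0.53 (SE; limma adjusted p = 0.0461), from 1034 ± 707 to 4416 ± 2145 normalised counts (SD, n = 3). The median of the 25 was 0.63, with 17 positive. In edgeR 2 were called higher, KIF20B and CIT (adjusted p of 0.0233 and 0.0495), and KIF14 was not (0.0516). CIT, the citron kinase of the midbody, had a limma adjusted p of 0.0537 and was chosen after its values were seen. RACGAP1, which recruits ECT2 to the midzone, had a difference of -0.62 ± 0.55 (SE; limma adjusted p = 0.551) and was chosen after its value was seen.

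Of 28 genes of spindle assembly, 3 were called higher and 0 lower, where limma called 2.28% and 1.42% of all tested genes. The median was 0.45 (all tested genes 0.01), with 21 positive (50.7%) and 9 at an unadjusted p under 0.05 (21.6%). Those called higher were CDK5RAP2 (log2 difference 2.42 ± 0.51, SE; limma adjusted p = 0.0271), KIF18A (2.41 ± 0.52, 0.0303), a kinesin that damps chromosome movements, and KIF15 (2.20 ± 0.44, 0.0232). CDK5RAP2 rose from 2045, 1680 and 941 normalised counts in inputs 1 to 3 to 12990, 4279 and 8963 in ORC1 IPs 1 to 3. Of 31 kinetochore and spindle checkpoint genes, 3 were called higher and 0 lower, beside the same shares of all tested genes. The median was 0.60, with 21 positive and 13 at an unadjusted p under 0.05. The 3 called higher were CENPE (8541 nt), a kinetochore kinesin, CENPF (10290 nt) and CENPC (6823 nt), with differences of 3.58 ± 0.52, 3.10 ± 0.68 and 2.61 ± 0.47 (SE; limma adjusted p of 0.00802, 0.0308 and 0.0150). Other mRNAs of the list that were longer than CENPC went both ways, and none was called. CASC5 (9266 nt) and KNTC1 (6974 nt) had differences of 2.04 and 1.56, and BUB3 (7703 nt) and NSL1 (13115 nt) of -0.48 and -0.63. CENPE was among the RNAs that the study picked from these libraries and is not independent evidence. In CENPF the IPs were within a narrow range, with 8688, 4644 and 2408 normalised counts in inputs 1 to 3, against 39057, 34002 and 45714 in ORC1 IPs 1 to 3.

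Of 41 other G2/M mRNAs, 0 were called higher and 1 lower (limma, with 8 at an unadjusted p under 0.05, against 21.6% of all tested genes; edgeR called 0 higher and DESeq2 4), and 20 were positive. FAM64A, which is PIMREG in newer annotations, fell by 1.39 ± 0.33 on the log2 scale (SE; limma adjusted p = 0.0410), from 1394 ± 201 to 531 ± 53.7 normalised counts (SD, n = 3). Of 12 genes of Ki-67 partners and of the chromosome periphery, 0 were called higher and 1 lower (limma, with 2 at an unadjusted p under 0.05, against the same 21.6%; edgeR called 0 higher and DESeq2 2). PPP1CA, a catalytic subunit of protein phosphatase 1, fell by 1.65 ± 0.41 on the log2 scale (SE; limma adjusted p = 0.0486). It had 4257, 6302 and 6944 normalised counts in inputs 1 to 3, against 1713, 1559 and 2248 in ORC1 IPs 1 to 3. With the replicate block FAM64A and PPP1CA lost the call (limma adjusted p of 0.0696 and 0.0888). PPP1CC and PPP1CB, further catalytic subunits of that phosphatase in the list, were not called and were chosen after their values were seen. Their differences were -0.42 ± 0.42 and -0.64 ± 0.38 (SE; limma adjusted p of 0.613 and 0.356). The 12 went both ways, with 5 positive differences and a median of -0.12. The largest positive ones were those of NCL (1.71 ± 1.18), NPM1 (1.58 ± 0.78) and NIFK (1.13 ± 0.51, SE). None of these was called either (limma adjusted p of 0.429, 0.263 and 0.219).

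These calls depended on single libraries and on the scaling. Without input 3 none of the 8 genes called higher in these lists kept its call (limma adjusted p from 0.0668 for CENPE to 0.346 for CENPF), and without input 2 or ORC1 IP 3 only CENPE did (0.0256 and 0.0457). Without ORC1 IP 1, KIF14 (0.0700), CDK5RAP2 (0.0518) and KIF18A (0.0521) lost it, and without input 1 CENPF did (0.0508), as it did with the replicate block (0.0743). After a correction for transcript length and GC content, only CENPE (0.0177) and CENPF (0.0297) kept a call. With scaling by total count KIF14 (0.0702), KIF18A (0.0548), CENPC (0.0541) and FAM64A (0.0854) lost theirs, and in edgeR KIF14 and PPP1CA did (both 0.0516). FAM64A and PPP1CA lost their calls without any library other than ORC1 IP 2 (0.0515 to 0.304). Without ORC1 IP 2 the genes called higher numbered 13 of 25, 12 of 28, 11 of 31, 6 of 41 and 4 of 12 in the order of the lists above, where 11.9% of all tested genes were.

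Transcript length was then set beside the difference in mitotic mRNAs that are not among the 8. The 125 genes of the midzone, spindle, kinetochore and G2/M lists were split at the median length of their longest annotated transcripts, 3417 nt. In the longer group (62 genes) 49 differences were positive, 7 genes were called higher and 0 lower, and the median difference was 0.73. In the shorter group (63 genes) 30 were positive, 1 gene was called higher and 1 lower, and the median difference was -0.01. Of all tested genes, 50.7% were positive, 2.28% were called higher and 1.42% lower, with a median difference of 0.01. The median log2 level of the longer group minus that of the shorter group was 0.76, 0.71 and 0.32 in inputs 1 to 3, against 1.86, 0.97 and 1.93 in ORC1 IPs 1 to 3. All IPs were above all inputs, with a mean gap of 0.99 (exact permutation test, two-sided, n = 3 a group, p = 0.1, which is the lowest value 3 against 3 libraries can give). The lists were chosen with earlier results of these data known. The study had also reported greater gene length for RNAs recovered in its ORC1 RIP. Gene length is another measure than the transcript length used here. The gap is therefore a description, and no independent support for length is read from it. The gap lay between 0.82 and 1.29 when any 1 library was left out and was 0.76 after a correction for transcript length and GC content.

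**Figure D4:**
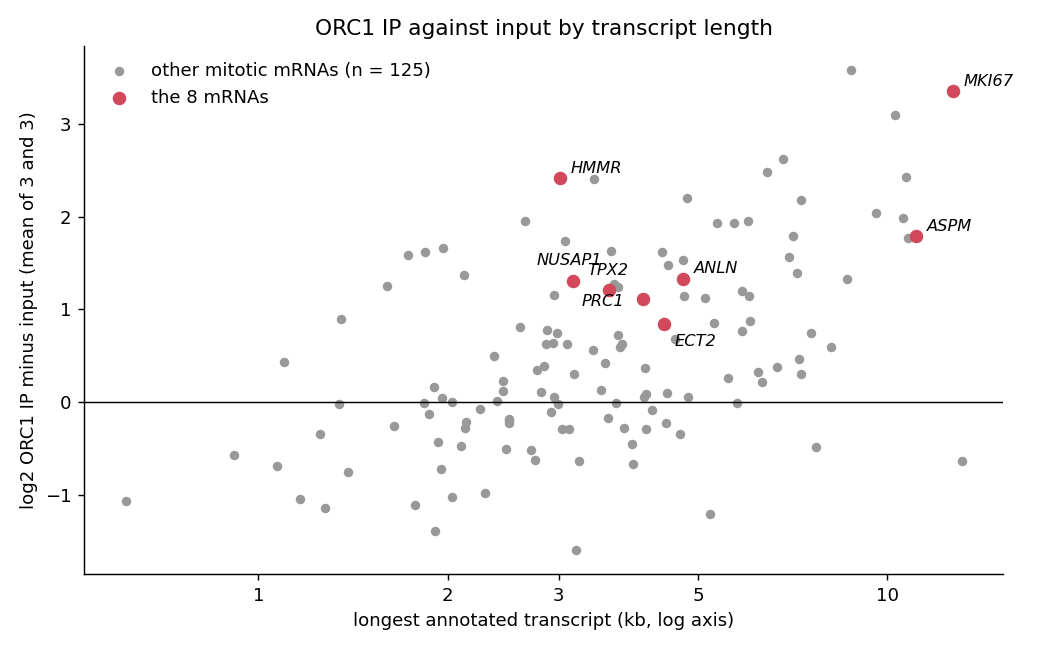
Each point is an mRNA, with the length of its longest annotated transcript (kb, log axis) against its log2 difference of ORC1 IP minus input, for 125 other mitotic mRNAs (grey) and the 8 mitotic mRNAs (red). MKI67 (3.35) and ASPM (1.79) sit at the long end, and HMMR has a difference of 2.41 at 3016 nt. The longest of all, NSL1 (13115 nt, grey), is at -0.63.

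Across the 125 genes the difference and transcript length had a Spearman rho of 0.488, and the difference and GC content one of -0.426. Among all tested genes with a match the rho with length was 0.336. By replicate the rho with length in the 125 genes was 0.398, 0.194 and 0.553. Genes share libraries and are not independent replicates, so these are descriptions. The 1607 tested genes with transcripts over 7488 nt, those above the 90th percentile of length, had a median difference of 0.54 and an upper quartile of 1.11, below the 3.35 of MKI67 and the 1.79 of ASPM. With length and GC content corrected for, by subtracting in each library the median of genes of like length and GC content, the differences of the 8 were 2.96 ± 0.62 for MKI67, 2.27 ± 0.68 for HMMR, 1.34 ± 0.50 for NUSAP1 and 1.32 ± 0.40 for ASPM (SE). TPX2, ANLN, PRC1 and ECT2 had 1.25, 1.15, 0.95 and 0.66. All 8 stayed positive, and NUSAP1 moved above ASPM and ANLN, and TPX2 above ANLN, by less than their SEs.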

How the data were processed

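Per the methods of the study, Trimmomatic, STAR (hg19), featureCounts (Ensembl genes) and, for differential expression, DESeq2 were used by the authors, and GL contig reads were dropped. How the deposited values were scaled is not stated. From the values, the deposited signal is the reads of each gene divided by 1 factor per library, and the columns beside it are those of DESeq2 output. The authors' deposited table also holds their fold changes, test statistics and p-values, which were not used. Every value was a whole multiple of the smallest nonzero value of its library (tolerance 0.001, 100% of values), so whole reads were recovered.

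Here log2(normalised count + 1) of 16513 genes with a mean of at least 10 was fitted with limma 3.58.1 (R 4.3.3; moderated test with an intensity trend, no block, Benjamini-Hochberg). Alternatives used edgeR 4.0.16 and DESeq2 1.42.0 on recovered reads, other scalings, pseudocounts and filters, a replicate block, a correction for transcript length and GC content (medians in cells of 5 by 5 quantile bins), and left out each library. The limma step was run on simulated counts with 1 fixed spread for both groups. The spread between these libraries was not simulated, so that run checks the code and not the results here. Lengths and sequences came from GENCODE v44 by Ensembl identifier (97.3% of tested genes), and primers from the oligonucleotide list of the study. Coordinates are those of GRCh38, not of the build used for counting.

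The labels number inputs and IPs by RIP replicate. After group means were subtracted, inputs and IPs of one number correlated at -0.322, -0.240 and 0.215, which leaves the pairing in doubt. Libraries of a group were not repeats of each other (chi-square of 49.5 to 676 per degree of freedom).

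The 8 genes and all lists were chosen with earlier results of these data known. All 8 are named, as are, from each other mitotic list, the 4 genes with the largest difference among those called higher and the 2 with the most negative among those called lower, and the 5 genes most correlated with MKI67.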

Additional observations from a re-analysis of the deposited data

How the results depend on the processing

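All 8 mitotic mRNAs kept a positive difference under every alternative run. Left-out libraries gave ranges of 2.77 to 3.95 for MKI67, 1.28 to 2.10 for ASPM, 0.54 to 2.05 for TPX2, 0.65 to 2.15 for ANLN, 0.51 to 1.25 for ECT2, 0.34 to 2.07 for PRC1, 0.82 to 1.80 for NUSAP1 and 1.80 to 3.11 for HMMR. The number of the 8 called was 0 to 7 with a library left out, 1 with scaling by total count (MKI67), upper quartile scaling (HMMR), limma without the trend (MKI67) or the replicate block (HMMR), and 6 in DESeq2. With upper quartile scaling 437 of the 16513 tested genes were called higher and 280 lower, and the counts over all tested genes in the other settings are given below. Scaling by total count lowered the all-gene median difference from 0.01 to -0.19, and gave the 8 differences of 0.63 to 3.13.

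Over all tested genes, 376 were called higher and 234 lower, against 87 and 96 with scaling by total count, 1266 and 718 in DESeq2, 143 and 96 without the trend, 58 and 43 after the correction for length and GC content, 433 and 191 with the replicate block, and 6 (without input 3) to 1965 (without ORC1 IP 2) higher and 23 to 1053 lower with a library left out. Genes called higher in the midzone and cytokinesis list numbered 1 with scaling by total count and without the trend, 4 with TMM or upper quartile scaling, 8 in DESeq2, 0 after the correction and 0 to 13 with a library left out. In the spindle assembly list they were 7 in DESeq2, 0 without the trend or after the correction, and 0 to 12 with a library left out. In the kinetochore list they were 10 in DESeq2 (2 lower) and 0 to 11 with a library left out (0 to 2 lower). In the G2/M list, 1 was called higher with upper quartile scaling or the replicate block, 4 in DESeq2 (3 lower) and 0 to 6 with a library left out (0 to 3 lower), and 0 were lower without the trend, with the block or after the correction. Among the Ki-67 partners, 2 were called higher in DESeq2 and 0 to 4 with a library left out (0 to 1 lower), and 0 were lower with no filter, with TMM scaling, in edgeR, without the trend, with the block or after the correction. The cause of these changes was not tested.

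The median differences of the midzone, spindle and kinetochore lists stayed positive under every alternative run. Those of the G2/M list and of the Ki-67 partners changed sign between settings (-0.29 to 0.14 and -0.36 to 0.42) and are read as no direction. Depth put the counting error of the 8 mRNAs at 4.77% or less, below the spread between libraries of a group in both inputs and IPs.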
